A study of Mus musculus with 8 samples.

Results

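The 41 genes described here encode the synaptic vesicle and the machinery that releases its contents: synapsins, SNARE proteins, priming and active zone proteins, complexins, synaptotagmins, vesicle membrane proteins, Rab3 proteins and their partners. They were taken by name from a list of gene symbols that was chosen with earlier results of these data known. All 41 were measured, among 18193 genes in all. Each gene was read from its brightest probe set, by mean value across all 8 arrays, so no measured difference between the groups entered the choice of probe set.

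Total RNA from the striatum, the forebrain nucleus most affected in Huntington's disease, was hybridised to 1 Affymetrix array per mouse. The 4 R6/2 mice (numbers 64, 65, 70 and 78) carry the R6/2 transgene, and the 4 wild-type mice (numbers 42, 48, 54 and 63) do not. All 8 were female, of mixed C57Bl/6 and CBA background, and 12 weeks old (85 days). The series names a further wild-type mouse, which is not analysed here. R6/2 is a transgenic model that expresses a short N-terminal fragment of human huntingtin, with an expanded CAG repeat, from the human promoter; it is not restricted to one cell type. The transgene itself was not read by a probe set used here, so the genotype labels could not be checked against it.

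As background, a vesicle filled with transmitter docks at the active zone, a protein scaffold built around Bassoon, Piccolo and the RIM proteins. Munc13 proteins prime it by opening syntaxin, which then zips with SNAP-25 on the plasma membrane and with synaptobrevin on the vesicle. Complexins clamp and assist this SNARE bundle, synaptotagmins trigger fusion when calcium enters, and NSF with its SNAP adaptors takes the used bundle apart. Most striatal neurons are GABAergic medium spiny neurons, whose axon terminals lie partly in the striatum and partly in its target nuclei. The terminals that cortex sends into the striatum are made by neurons whose cell bodies lie outside it.

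In R6/2 striatum 10 of the 41 genes (24.4%) fell and 0 rose, by limma with Benjamini-Hochberg adjusted p below 0.05 over all 18193 genes. Of all genes tested, 6.19% fell and 9.09% rose by the same rule, 15.3% in all. The genes that fell were Unc13a, Bsn and Rims2 of the active zone, the complexin Cplx2, the synaptotagmins Syt2 and Syt7, the vesicle membrane protein gene Synpr, the C2-domain genes Rph3a and Doc2b, and the SNARE recycling gene Napb. Their decreases ranged between 1.22-fold and 1.91-fold. Of the 31 genes that did not pass, 21 had a negative and 10 a positive difference. At an unadjusted p below 0.05, 18 members were lower and 1 was higher. The median log2 difference of the 41 genes was -0.20, beside -0.0034 over all genes. In 8 members (19.5%) every R6/2 mouse lay below every wild-type mouse, beside 7.67% of all genes. In 1 member (2.44%) every R6/2 mouse lay above every wild-type mouse, beside 11.7% of all genes. The shares over all genes include genes with little or no signal. With the dimmest 40% of genes left out, 12 of the members kept fell and 0 rose. Of the 10916 genes kept in that fit, 1137 (10.4%) fell and 1840 rose. Because the list was chosen with earlier results of these data known, these shares and medians beside those of all genes are a description, not a test. In tissue RNA of this kind, fewer cells of a type and less RNA per cell cannot be told apart.

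**Figure D1:**
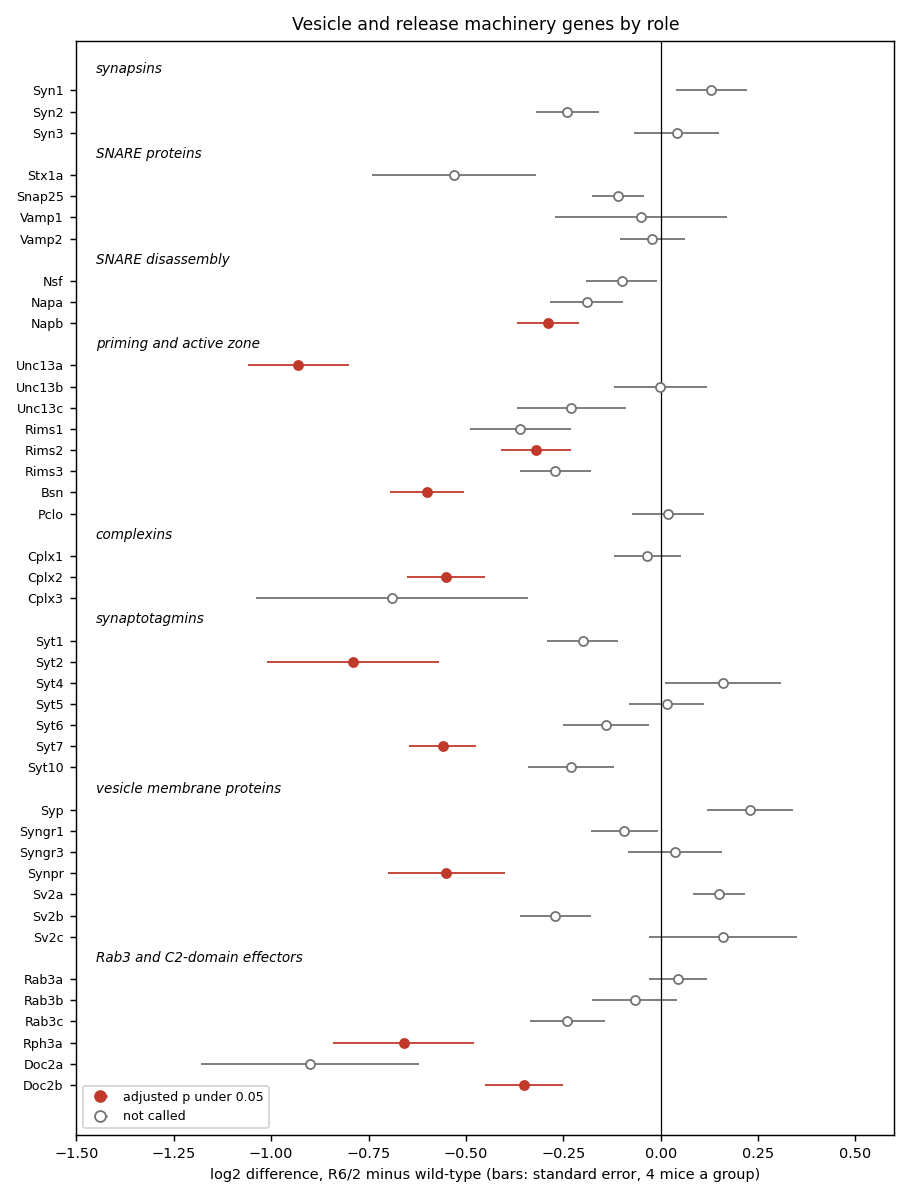
Log2 difference, R6/2 minus wild-type, of each of the 41 genes, grouped by role; bars are standard errors from limma (4 mice a group), and filled points passed the adjusted p threshold. The 10 genes that fell lie in 6 of the 8 role groups, and the synapsins and SNARE proteins hold none of them.

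The number of members called, and of all genes called, varied with the mice in the fit. Among the R6/2 mice, omitting number 65 gave a count of 6, omitting number 70 a count of 4, and omitting number 78 a count of 5. Among the wild-type mice, omitting number 42, 48 or 63 gave a count of 6. Omitting R6/2 mouse 64 or wild-type mouse 54 gave 10. Over all genes, the share called lower in these 8 fits ran from 4.15% (R6/2 mouse 70 omitted) to 6.17% (wild-type mouse 63 omitted). It was 6.19% with all mice. This share and the member count did not always move together. Without wild-type mouse 63 they were 6.17% and 6, and without R6/2 mouse 64 they were 5.13% and 10. Unc13a, Bsn, Syt7 and Cplx2 passed in each of the 8 fits that left out 1 mouse, and the other 6 did not. Unc13a, Bsn and Syt7 passed in all 17 alternative settings tried.

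Of the 8 priming and active zone genes measured, Unc13a, Bsn and Rims2 fell, 0 rose, and the group's median log2 difference was -0.30. Unc13a, with the largest decrease of the 10, encodes Munc13-1, the priming factor that most forebrain synapses depend on. Its log2 values were 7.39, 7.19, 7.01 and 7.35 in R6/2 mice 64, 65, 70 and 78, against 8.51, 8.09, 8.09 and 7.98 in wild-type mice 42, 48, 54 and 63. The groups were well apart, and the lowest wild-type mouse, number 63, exceeded the highest R6/2 mouse, number 64, by more than the spread within R6/2. The difference was -0.93 ± 0.13 on the log2 scale (SE, n = 4 mice each, limma adjusted p = 0.00123), a 1.91-fold decrease. Unc13a was read by a single probe set.

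Bsn encodes Bassoon, a giant scaffold protein of the active zone. Its log2 values were 9.29, 9.01, 9.08 and 8.97 in the R6/2 mice, against 9.87, 9.68, 9.57 and 9.63 in the wild-type mice, in the same mouse order. All 4 R6/2 mice lay below all 4 wild-type mice. The difference was -0.60 ± 0.094 (limma adjusted p = 0.00272), a 1.51-fold decrease. Other probe sets of Bsn, both dimmer, differed by -0.13 (adjusted p = 0.510 over all probe sets) and -0.072 (adjusted p = 0.732).

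Rims2 encodes RIM2, which ties vesicles and calcium channels to the active zone. It read 9.02, 9.17, 9.03 and 9.09 in the R6/2 mice, against 9.51, 9.23, 9.29 and 9.57 in the wild-type mice. The groups did not overlap, but R6/2 mouse 65 and wild-type mouse 48 were close. The difference was -0.32 ± 0.091 (limma adjusted p = 0.0379). It passed in 3 of the 8 fits without 1 mouse, with an adjusted p of up to 0.0972 without R6/2 mouse 70. A second probe set of Rims2 with nearly the same mean differed by -0.036 (adjusted p = 0.812). With the mean of all its probe sets Rims2 gave -0.022 (adjusted p = 0.837), and with median centring -0.31 (adjusted p = 0.0509).

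Among the other active zone genes, Rims1, the close relative of Rims2, read 9.67, 9.38, 9.47 and 9.43 in the R6/2 mice and 10.07, 9.92, 9.45 and 9.94 in the wild-type mice. Wild-type mouse 54 lay among the R6/2 mice and the other 3 wild-type mice above them. The difference of -0.36 ± 0.13 did not pass (limma adjusted p = 0.0840), and without wild-type mouse 54 it was -0.49 (adjusted p = 0.00978). Rims3, a short RIM form, differed by -0.27 (adjusted p = 0.0653), with no overlap between the groups. Unc13b, Unc13c and Pclo differed by -0.00077 (95% interval -0.26 to 0.26), -0.23 (adjusted p = 0.309) and 0.019 (95% interval -0.19 to 0.22). Pclo encodes Piccolo, the scaffold protein most like Bassoon, and Unc13b and Unc13c encode the other brain Munc13 proteins.

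The promoters of Unc13a and Bsn, the genes with the lowest adjusted p in this group, are shown. They were picked because few promoters hold the RE1 parts of Unc13a or the NRF1 letters of Bsn, described below. The GC boxes and the EGR site also marked in Unc13a are more common. RefSeq windows of 300 bases, from 250 before to 50 after the annotated start on GRCm38.p6, were matched for 31 of the 41 genes, and motifs were searched on both strands. The Unc13a stretch of 250 bases lies just upstream of its start, at chr8:71671758-71672007 on the minus strand. Capitals mark 2 GC boxes (GGGCGG, here on the other strand) and an EGR site (GCGNGGGCG) that overlaps the second of them. The shorter Unc13a stretch, at chr8:71671722-71671751 on the minus strand, begins 7 bases after the start. Its capitals mark matches to the left part (TTCAGCACC) and the right part (GGACAGCG) of the RE1 element of the neuronal repressor REST, both on the other strand, with 8 bases between them. The Bsn stretch of 250 bases lies upstream of its start at chr9:108190384-108190633 on the minus strand, and capitals mark 2 sites of NRF1, a factor of many housekeeping promoters.
Unc13a upstream: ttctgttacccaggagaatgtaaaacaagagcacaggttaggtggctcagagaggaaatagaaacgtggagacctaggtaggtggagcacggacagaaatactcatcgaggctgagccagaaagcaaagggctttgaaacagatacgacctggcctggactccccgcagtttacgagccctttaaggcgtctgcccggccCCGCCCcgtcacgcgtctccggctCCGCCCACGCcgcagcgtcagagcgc
Unc13a downstream: CGCTGTCCgcgcccccGGTGCTGAAgcgac
Bsn upstream: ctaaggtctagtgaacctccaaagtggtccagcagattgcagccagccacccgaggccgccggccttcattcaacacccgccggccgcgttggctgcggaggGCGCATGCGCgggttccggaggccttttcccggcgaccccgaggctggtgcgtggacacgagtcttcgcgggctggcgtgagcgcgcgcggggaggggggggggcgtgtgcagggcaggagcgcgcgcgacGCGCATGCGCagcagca

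Both RE1 parts, at any spacing and in any orientation, were found in 0.0213% of the 32851 windows in the table, and among the members in Unc13a. The left part, with or without the right one, was found in 0.371% of windows and, among the members, in Unc13a and Syn1. The NRF1 letters were found in 0.971% of windows and, among the members, in Bsn. The EGR letters were found in 5.55% of windows and in 6 of the 31 matched members, namely Cplx1, Nsf, Syn2, Syngr1, Synpr and Unc13a. The GC box was found in 35.7% of windows, in 4 of 7 matched members that fell and in 21 of 24 that did not. The percentages count windows, while the members are counted as genes. The 31 matched members had 43 windows, and a gene counted if any of its windows matched. The percentages and member counts are therefore not directly comparable. These matches describe letters only.

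Of the 3 complexins, small proteins that bind the assembled SNARE bundle, Cplx2 fell and 0 rose, with a median log2 difference of -0.55. Cplx2 read 11.55, 11.16, 11.31 and 11.37 in the R6/2 mice, against 12.02, 11.95, 11.90 and 11.71 in the wild-type mice. The groups did not overlap, with R6/2 mouse 64 and wild-type mouse 63 the nearest pair. The difference was -0.55 ± 0.10 (limma adjusted p = 0.00539), a 1.46-fold decrease. Other probe sets of Cplx2 differed by -0.63 (adjusted p = 0.00439) and -0.77 (adjusted p = 0.0496). Cplx1 differed by -0.034 (95% interval -0.22 to 0.16, limma adjusted p = 0.837). Cplx3 read 5.43, 3.98, 4.41 and 4.13 in the R6/2 mice and 5.58, 5.25, 4.27 and 5.62 in the wild-type mice. The groups overlapped, and its difference of -0.69 ± 0.35 did not pass (adjusted p = 0.213).

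Cplx3, Syt10 and Sv2c were dim on these arrays. Y-linked genes, which female mice lack, gave a measure of signal without target: 6 of them read between 3.0 and 5.37. The means of Cplx3, Syt10 and Sv2c lay within that range in both groups. The R6/2 mean of Doc2a (5.05) lay within it and its wild-type mean (5.94) did not.

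Of the 4 SNARE genes 0 fell and 0 rose, with a median log2 difference of -0.079. Snap25, which encodes the plasma membrane SNARE SNAP-25, read 12.70, 12.70, 12.65 and 12.79 in the R6/2 mice and 12.83, 12.79, 12.77 and 12.88 in the wild-type mice. The groups overlapped narrowly, at R6/2 mouse 78. The difference was -0.11 ± 0.067 (95% interval -0.26 to 0.042, limma adjusted p = 0.328). A dimmer probe set of Snap25 with a mean of 7.20 differed by -0.67 (adjusted p = 0.0257 over all probe sets). Vamp2, the main forebrain synaptobrevin, differed by -0.021 (95% interval -0.20 to 0.16).

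Stx1a, which encodes syntaxin-1A, read 9.84, 9.19, 9.43 and 9.22 in the R6/2 mice and 10.42, 9.97, 9.37 and 10.03 in the wild-type mice. R6/2 mouse 64 and wild-type mouse 54 crossed over, and the other 3 mice of each group lay apart. The difference of -0.53 ± 0.21 did not pass (limma adjusted p = 0.116), but it did without wild-type mouse 54 (-0.72, adjusted p = 0.0242). Vamp1, the synaptobrevin most used in spinal cord and brainstem, varied more within groups than between them. It read 7.93, 8.24, 7.82 and 8.69 in the R6/2 mice and 8.04, 7.92, 8.10 and 8.83 in the wild-type mice, and the groups overlapped (-0.051 ± 0.22, adjusted p = 0.907).

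The 3 genes that take SNARE bundles apart gave 1 decrease and 0 increases, with a median of -0.19. Napb encodes beta-SNAP, the brain form of the adaptor that brings NSF to the bundle. It read 10.33, 10.19, 10.15 and 10.23 in the R6/2 mice, against 10.66, 10.47, 10.40 and 10.54 in the wild-type mice. The groups did not overlap, but the nearest mice, R6/2 mouse 64 and wild-type mouse 54, differed little. The difference was -0.29 ± 0.080 (limma adjusted p = 0.0336), the smallest decrease of the 10. It passed in 2 of the 8 fits without 1 mouse, with an adjusted p of up to 0.0954 without R6/2 mouse 70. Of 5 other probe sets of Napb none was called, and 2 of them had the opposite sign, at 0.11 and 0.21. The mean of all its probe sets gave -0.095 (adjusted p = 0.381), and median centring -0.28 (adjusted p = 0.0540). Napa, the alpha-SNAP gene, differed by -0.19 (adjusted p = 0.203), and its dimmer probe set differed by -0.54 (adjusted p = 0.00486 over all probe sets). Nsf itself differed by -0.10 (adjusted p = 0.494).

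Of the 7 synaptotagmin genes Syt2 and Syt7 fell and 0 rose, with a median log2 difference of -0.20. Syt7 encodes a slow calcium sensor with high calcium affinity, linked to asynchronous release, facilitation and vesicle resupply. It read 10.17, 10.06, 9.98 and 10.17 in the R6/2 mice, against 10.80, 10.59, 10.51 and 10.72 in the wild-type mice. The groups did not overlap and were each narrow. The difference was -0.56 ± 0.085 (limma adjusted p = 0.00219), a 1.47-fold decrease. Other probe sets of Syt7 differed by -0.60 (adjusted p = 0.00872), -0.43 (adjusted p = 0.0358) and -0.38 (adjusted p = 0.103).

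Syt2 encodes a fast calcium sensor that is best known at hindbrain synapses and in parvalbumin interneurons. It read 5.55, 6.16, 5.70 and 6.76 in the R6/2 mice, against 6.76, 6.72, 7.03 and 6.80 in the wild-type mice. R6/2 mouse 78 lay within the wild-type range and the other 3 R6/2 mice below it. The difference was -0.79 ± 0.22 (limma adjusted p = 0.0363), with an SD of 0.54 among R6/2 mice and 0.14 among wild-type mice. It passed in 1 of the 8 fits without 1 mouse, with an adjusted p of up to 0.103 without R6/2 mouse 70. Other probe sets of Syt2 were dimmer, with means of 4.54 in R6/2 and 5.74 in wild-type mice for one, and 4.42 in R6/2 and 5.14 in wild-type mice for the other. Their differences of -1.20 and -0.72 had the same sign as the main one (limma adjusted p = 0.00170 and 0.00622 over all probe sets). All of these means but the 5.74 lay within the range of the Y-linked genes given above, so these probe sets give no firm size of a difference.

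Syt1, the main fast calcium sensor of forebrain synapses, differed by -0.20 (limma adjusted p = 0.167). Its other probe sets disagreed, at -0.59 (adjusted p = 0.00455), -0.039 (adjusted p = 0.941) and 0.30 (adjusted p = 0.674). Syt4, Syt5, Syt6 and Syt10 did not pass either, with differences of 0.16 (adjusted p = 0.541), 0.015 (adjusted p = 0.936), -0.14 (adjusted p = 0.448) and -0.23 (adjusted p = 0.209).

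**Figure D2:**
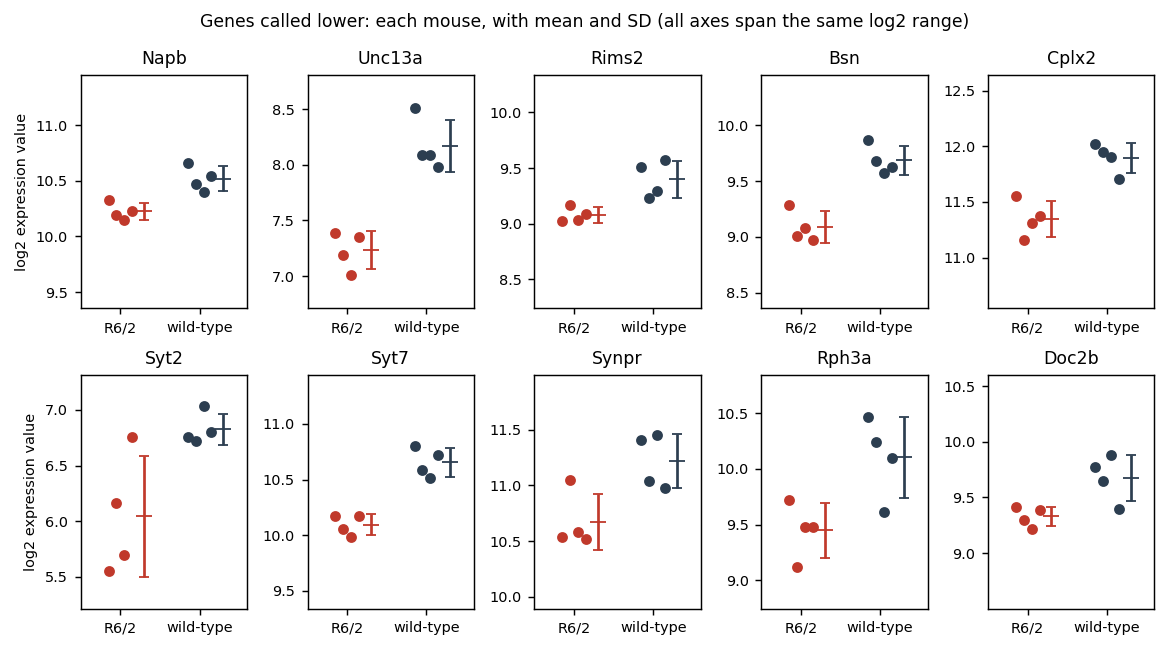
Log2 value in each mouse of the 10 genes that fell, R6/2 mice left of wild-type mice, with the mean and SD of each group beside the points; all panels span the same log2 range. In 6 of the 10 panels (Napb, Unc13a, Rims2, Bsn, Cplx2 and Syt7) the groups do not overlap; in Syt2, Synpr, Rph3a and Doc2b at least 1 mouse crosses.

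The Rab3 proteins and the C2-domain proteins that act with them numbered 6, of which Rph3a and Doc2b fell and 0 rose, with a median log2 difference of -0.29. Rph3a encodes rabphilin, a Rab3 effector on the vesicle. It read 9.72, 9.12, 9.48 and 9.48 in the R6/2 mice, against 10.47, 10.24, 9.61 and 10.10 in the wild-type mice. R6/2 mouse 64 lay above wild-type mouse 54, and the other 3 mice of each group lay apart. The difference was -0.66 ± 0.18 (limma adjusted p = 0.0312), a 1.58-fold decrease. It passed in 2 of the 8 fits without 1 mouse, with an adjusted p of up to 0.0877 without wild-type mouse 48. The mean of its probe sets gave -0.68 (adjusted p = 0.0587).

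Doc2b encodes a calcium sensor of spontaneous and asynchronous release. It read 9.41, 9.30, 9.22 and 9.39 in the R6/2 mice, against 9.77, 9.65, 9.88 and 9.40 in the wild-type mice. R6/2 mouse 64 lay just above wild-type mouse 63. The difference was -0.35 ± 0.10 (limma adjusted p = 0.0468), and it passed in 1 of the 8 fits without 1 mouse, with an adjusted p of up to 0.125 without R6/2 mouse 70. Its second probe set had the opposite sign, at 0.080 (adjusted p = 0.740). The mean of both gave -0.13 (adjusted p = 0.371), and median centring -0.33 (adjusted p = 0.0643).

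Doc2a, the paralog of Doc2b, read 5.61, 4.99, 5.34 and 4.25 in the R6/2 mice and 6.54, 5.83, 5.51 and 5.89 in the wild-type mice. R6/2 mouse 64 lay above wild-type mouse 54. The difference of -0.90 ± 0.28 did not pass (limma adjusted p = 0.0548). Rab3a, the main Rab3 protein of brain vesicles, differed by 0.045 (95% interval -0.12 to 0.21). Rab3b and Rab3c differed by -0.067 (adjusted p = 0.746) and -0.24 (adjusted p = 0.115).

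Of the 7 vesicle membrane protein genes Synpr fell and 0 rose, with a median of 0.037. Synpr encodes synaptoporin, a relative of synaptophysin. It read 10.54, 11.05, 10.58 and 10.52 in the R6/2 mice, against 11.41, 11.04, 11.45 and 10.98 in the wild-type mice. R6/2 mouse 65 lay among the lower wild-type mice and the other 3 R6/2 mice below all of them. The difference was -0.55 ± 0.15 (limma adjusted p = 0.0306), and it passed in 3 of the 8 fits without 1 mouse, with an adjusted p of up to 0.0845 without R6/2 mouse 70.

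Syp, the synaptophysin gene, differed by 0.23 (95% interval -0.018 to 0.47, limma adjusted p = 0.202). It passed as higher without wild-type mouse 42 (adjusted p = 0.0392). Sv2a, the common SV2 form, was the 1 member in which every R6/2 mouse lay above every wild-type mouse, at 0.15 (adjusted p = 0.155). Sv2b read 9.83, 9.42, 9.68 and 9.58 in the R6/2 mice and 9.87, 9.96, 9.83 and 9.96 in the wild-type mice. The groups met at R6/2 mouse 64 and wild-type mouse 54, and the difference of -0.27 ± 0.092 did not pass (adjusted p = 0.0715). Sv2c read 4.36, 4.36, 4.36 and 4.41 in the R6/2 mice and 3.86, 4.82, 4.36 and 3.82 in the wild-type mice, with the same deposited value on 4 arrays (0.16 ± 0.19, adjusted p = 0.629). Syngr1 and Syngr3, synaptogyrin genes, differed by -0.093 (adjusted p = 0.525) and 0.037 (adjusted p = 0.867).

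Of the 3 synapsins, which tether vesicles in reserve clusters, 0 fell and 0 rose, with a median of 0.041. Syn1 read 11.06, 10.73, 10.90 and 10.84 in the R6/2 mice and 10.88, 10.76, 10.60 and 10.75 in the wild-type mice. The groups overlapped (0.13 ± 0.091, 95% interval -0.067 to 0.33, limma adjusted p = 0.366). Syn2 differed by -0.24 (adjusted p = 0.0758), with every R6/2 mouse below every wild-type mouse, and Syn3 by 0.041 (adjusted p = 0.850). The Syn1 promoter is a known REST target, and its RE1 left part (capitals) is shown for comparison with Unc13a, at chrX:20921109-20921168 on the minus strand of GRCm38.p6, from RefSeq.
Syn1 upstream: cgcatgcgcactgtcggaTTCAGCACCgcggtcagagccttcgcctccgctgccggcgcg

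Close relatives were then set against each other within each array, as the log2 value of one gene minus that of the other. The gene with the lower difference between R6/2 and wild-type was always put first. Every change is therefore negative by construction, and its sign is not a result. Only the change in that value between groups is read, since levels of different probe sets are not comparable. Of 45 pairs in 13 families, 11 had groups that did not overlap, each with an exact two-sided permutation p of 0.0286, the smallest that 70 arrangements allow. After adjustment over the 45 pairs this was 0.117, so 0 pairs passed. Since 0.0286 is the smallest p possible, passing would have needed far more pairs to reach it, so this outcome says little. The share of pairs without overlap among other genes was not counted, so the 11 are a description only. Unc13a minus Unc13b was -0.18 ± 0.19 in R6/2 and 0.75 ± 0.18 in wild-type mice (SD, n = 4 each), a change of -0.93 ± 0.13. Bsn minus Pclo was -1.06 ± 0.048 in R6/2 and -0.45 ± 0.15 in wild-type mice, a change of -0.62 ± 0.079. Cplx2 minus Cplx1 was -0.39 ± 0.098 in R6/2 and 0.12 ± 0.22 in wild-type mice, a change of -0.51 ± 0.12. In all 3 pairs each R6/2 mouse lay below each wild-type mouse.

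Of the other pairs without overlap, Syn2 with Syn1 and Sv2b with Sv2a joined members that did not pass alone. Syn2 minus Syn1 changed by -0.37 ± 0.049 and Sv2b minus Sv2a by -0.43 ± 0.11 (exact permutation p = 0.0286 and adjusted p = 0.117 in both). Synpr minus Syp changed by -0.77 ± 0.21, and Syt7 minus Syt1 by -0.36 ± 0.11, with the same p. The remaining 4 of the 11 pairs were Unc13a minus Unc13c, Syt7 minus Syt4, Syt7 minus Syt5 and Syt2 minus Syt4.

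**Figure D3:**
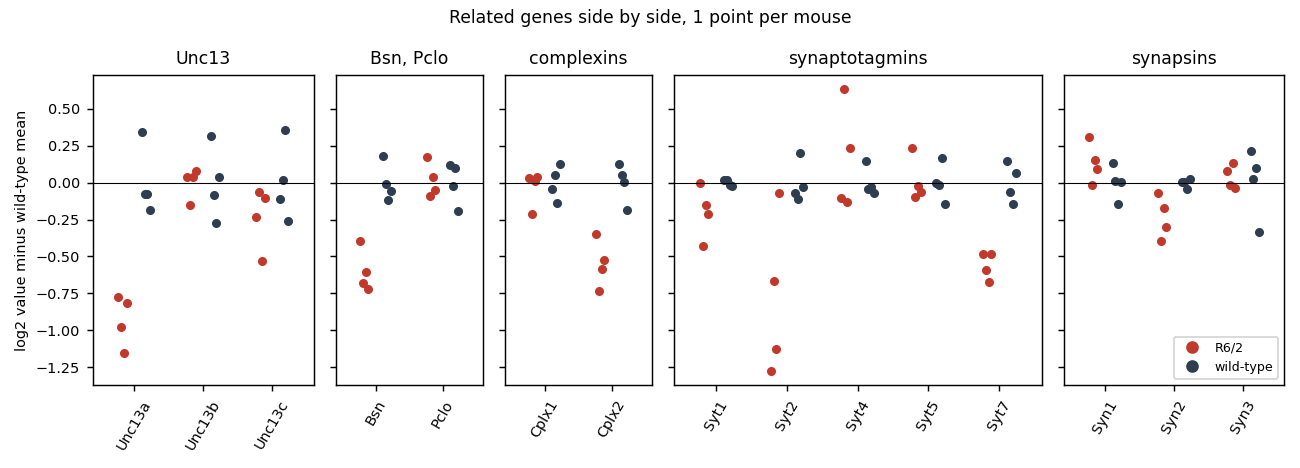
Log2 value minus the wild-type mean of the same gene, 1 point per mouse, R6/2 left of wild-type, for related genes side by side (Munc13 genes, Bsn and Pclo, complexins, synaptotagmins, synapsins). The R6/2 points of Unc13a, Bsn, Cplx2 and Syt7 lie below all their wild-type points, while the points of Unc13b, Pclo, Cplx1 and Syt5 overlap.

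Markers of cell types were read beside these genes. All 11 markers shared by medium spiny neurons fell, with a summed score (mean log2 value relative to wild-type) between -0.92 and -0.85 in R6/2 mice and between -0.24 and 0.087 in wild-type mice. Of 6 direct pathway markers 3 fell (Drd1, Pdyn and Slc35d3) and 1, Isl1, rose by 0.37 (limma adjusted p = 0.0179), with scores from -0.32 to -0.26 in R6/2 and from -0.12 to 0.091 in wild-type mice. All 3 indirect pathway markers measured fell (Penk, Drd2 and Gpr6), with scores from -1.09 to -1.06 in R6/2 and from -0.28 to 0.14 in wild-type mice. Of 12 general neuronal genes 0 fell and 1 rose (Stmn2), and the score ran from -0.098 to 0.070 in R6/2 and from -0.15 to 0.13 in wild-type mice. Of 11 interneuron markers 4 fell, with scores from -0.81 to -0.26 in R6/2 and from -0.37 to 0.29 in wild-type mice. Among other cells, 3 of 8 astrocyte, 1 of 7 oligodendrocyte, 0 of 8 microglial and 2 of 7 endothelial markers fell, and 0 of them rose. The astrocyte score ran from -0.35 to -0.23 in R6/2 and from -0.16 to 0.22 in wild-type mice, and the endothelial score from -0.36 to -0.19 in R6/2 and from -0.089 to 0.098 in wild-type mice, so the groups did not overlap in either. The oligodendrocyte score ran from -0.19 to 0.025 in R6/2 and from -0.18 to 0.27 in wild-type mice, and the microglial score from -0.17 to 0.076 in R6/2 and from -0.13 to 0.12 in wild-type mice, with overlap in both. Ependymal and choroid plexus markers gave 1 decrease and 1 increase of 8, and their score varied between mice, from -0.76 to 1.29 in R6/2 and from -0.85 to 0.91 in wild-type mice. The part of these marker changes in the results above was not tested.

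Markers of cortical projection neurons, whose cell bodies do not belong to the striatum, varied from mouse to mouse. Of 11 such markers, 2 fell (Rasgrf2 and Slc30a3) and 0 rose, with a median log2 difference of -0.67. The score was -0.13, -1.1, -0.55 and -0.93 in R6/2 mice 64, 65, 70 and 78, and 0.31, 0.077, -0.61 and 0.22 in wild-type mice 42, 48, 54 and 63. R6/2 mice 64 and 70 were thus above wild-type mouse 54, number 70 only narrowly. Every R6/2 mouse was below the other 3 wild-type mice. Slc17a7, which encodes the transporter that loads glutamate into vesicles of cortical neurons, read 7.64, 5.08, 6.43 and 5.30 in the R6/2 mice and 8.66, 8.36, 5.80 and 8.58 in the wild-type mice, with the same crossing.

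Of the 41 members, 2 followed that score throughout. Stx1a and Rims1 ran over the 8 mice in exactly the order of the cortical score, as did 4 of the 18182 genes that are not cortical markers, a count that includes both. These and the other genes plotted against the score were picked after their values were seen. The crossing of R6/2 mouse 64 and wild-type mouse 54 was also present in single genes. Rph3a read 9.72 in R6/2 mouse 64 and 9.61 in wild-type mouse 54, and Stx1a 9.84 and 9.37.

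**Figure D4:**
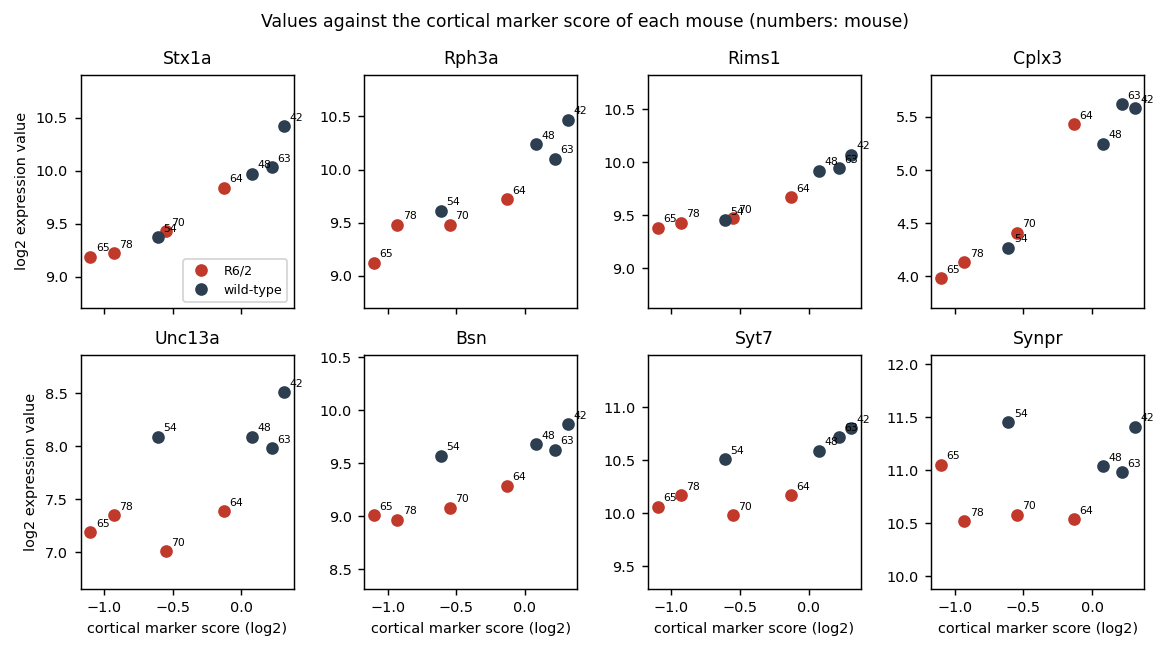
Log2 value in each mouse against the cortical marker score of that mouse (log2, relative to wild-type), with R6/2 listed before wild-type. Stx1a and Rims1 run in the order of the score over all 8 mice, while Unc13a, Bsn and Syt7 keep every wild-type mouse above every R6/2 mouse.

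When the cortical score entered the fit as a covariate, 5 members were called lower (Unc13a, Bsn, Syt2, Syt7 and Synpr) and the median log2 difference was -0.097. Over all genes 2.61% were called lower in that fit, which has 5 residual degrees of freedom in place of 6. Unc13a gave -0.83 (limma adjusted p = 0.0238), Bsn -0.42 (adjusted p = 0.0438) and Syt7 -0.46 (adjusted p = 0.0391). Syt2 and Synpr gave -1.22 (adjusted p = 0.0170) and -0.77 (adjusted p = 0.0344). Cplx2 gave -0.43 (adjusted p = 0.0813), Doc2b -0.43 (adjusted p = 0.103) and Rims2 -0.29 (adjusted p = 0.210). Rph3a gave -0.21 (adjusted p = 0.413), and Napb gave -0.18 (adjusted p = 0.335). Stx1a gave 0.038 (adjusted p = 0.911), Rims1 -0.051 (adjusted p = 0.843), Doc2a -0.27 (adjusted p = 0.622) and Cplx3 0.30 (adjusted p = 0.222). The score itself differs between the groups, and 2 of its genes fell, so this fit takes away part of any group difference that runs with it.

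**Figure D5:**
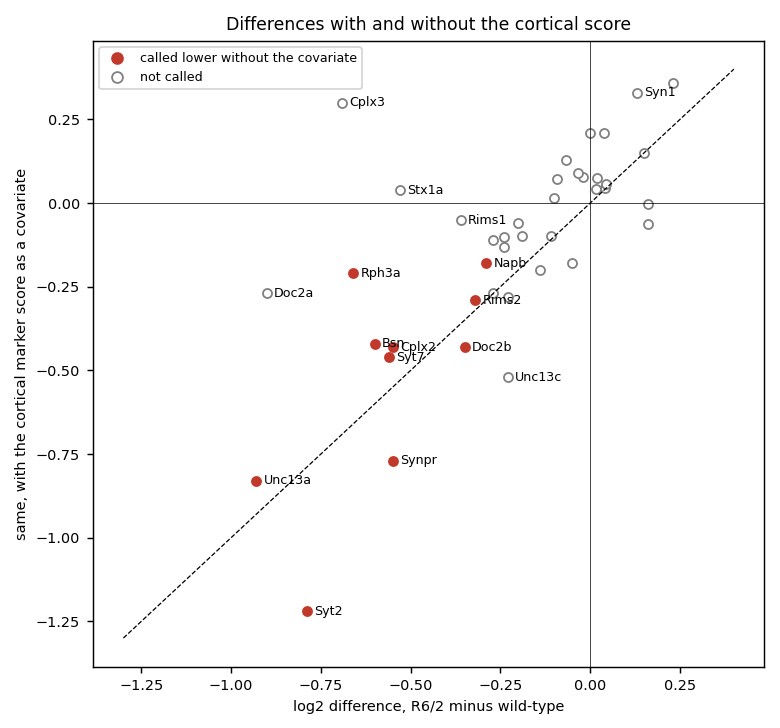
Log2 difference, R6/2 minus wild-type, of each member with the cortical score as covariate against the difference without it; filled points passed without the covariate, and the dashed line marks equal values. Rph3a, Stx1a, Rims1, Doc2a and Cplx3 lie nearer 0, or past it, with the covariate; Unc13a, Bsn and Syt7 stay below -0.40.

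The probe sets not used for the main values were also read. The 41 genes had 102 probe sets, 1 in each of 10 genes and more in 31. Of the 61 others, 12 were called lower and 0 higher, beside 4.59% called lower and 5.54% called higher over all probe sets. Of the 12, 6 belonged to genes not called by their main probe set: Napa, Pclo, Rims1, Snap25, Syt1 and Unc13c. Rims1 gave -0.39 (adjusted p = 0.0320), Unc13c -0.49 (adjusted p = 0.0247) and Pclo -0.57 (adjusted p = 0.0242), the last with a sign opposite to its main probe set. In all 18 others had the opposite sign, and the other 17 were not called. Apart from Pclo, these belonged to Cplx1, Doc2b, Napb, Rab3c, Rims2, Syn2, Syngr1, Syt1, Syt6, Unc13b, Vamp1 and Vamp2. The largest was 0.35 in Rims2 (adjusted p = 0.0658), in a probe set with a mean of 4.94. The main probe sets of Doc2b, Rims2 and Syt2 did not pass when adjusted over all probe sets (adjusted p = 0.0645, 0.0524 and 0.0519).

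The other genes of the presynaptic terminal were described from 5 lists holding 120 measured genes. Of these 9 fell (7.5%) and 13 rose (10.8%), and the median log2 difference was 0.011. These shares were near those of all genes, 6.19% lower and 9.09% higher, and the counts of the 5 lists are given as a description only. Other active zone scaffolds gave 4 decreases and 1 increase of 21, with a median of -0.18. Lin7b, part of a scaffold with Mint and CASK, fell by 0.87 ± 0.091 on the log2 scale (limma adjusted p = 0.000334). Git1 fell by 0.68 ± 0.13 (adjusted p = 0.00603), and Erc2, which encodes the active zone protein CAST, fell by 0.46 ± 0.088 (adjusted p = 0.00713). Ppfia2, the liprin-alpha-2 gene, rose by 0.35 (adjusted p = 0.0282).

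Of 31 other vesicle proteins and synaptotagmins 2 fell and 3 rose, with a median of 0.0074. Syt9, a fast calcium sensor used by striatal neurons, fell by 0.94 ± 0.11 (limma adjusted p = 0.000620). It read 6.39, 6.06, 6.19 and 5.99 in the R6/2 mice and 6.85, 7.11, 7.27 and 7.14 in the wild-type mice, with no overlap. The increases were Syt14 (0.39, adjusted p = 0.0177), Rabac1 (0.62, adjusted p = 0.0199) and Sytl2 (0.44, adjusted p = 0.0222). Of 21 other SNARE proteins and regulators 2 fell and 5 rose, with a median of 0.047. Stxbp5l, a tomosyn gene, and Prrt1 fell by 0.37 and 0.36 (adjusted p = 0.00823 and 0.00892), and Vamp7 and Stxbp6 rose by 0.44 and 0.45 (adjusted p = 0.0128 and 0.0168). Prrt1 was counted as listed, though it is not an established SNARE protein or SNARE regulator.

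The remaining lists hold the genes that fill the vesicle and those that retrieve it. Of 19 transmitter loading and proton pump genes 0 fell and 4 rose, with a median of 0.12. All 4 belonged to the vesicular proton pump: Atp6ap1 (0.38 ± 0.071, limma adjusted p = 0.00575), Atp6v1a (0.44, adjusted p = 0.0114), Atp6v1f (0.37, adjusted p = 0.0123) and Atp6v1g1 (0.35, adjusted p = 0.0182). Of 28 endocytosis genes 1 fell, Sh3gl3 of the endophilin family (-0.27 ± 0.080, adjusted p = 0.0440), and 0 rose, with a median of 0.0030. The count of increases over the 120 genes was 7 when R6/2 mouse 64 or 70 was omitted and 8 when wild-type mouse 48 was omitted. Over all 18193 genes the number called higher also dropped in these fits, from 1654 to 995, 924 and 921. Differences between these lists were not tested.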

How the data were processed

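The deposited table holds log2 expression values that the authors made with RMA in the R package affy, per the submitters' processing notes; neither version is given in the sources used here. It has 45101 probe sets on 8 arrays. After 64 control probe sets were left out, 34945 probe sets had 1 gene symbol in the platform annotation, 932 had several and 9160 had none. By Entrez identifier 34741 probe sets matched RefSeq, and no symbol was changed. Those with several or no symbols were not used. The probe set with the highest mean stood for each of 18193 genes.

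Values ran from 2.57 to 14.49, array medians from 5.08 to 5.13, and correlations between arrays from 0.983 to 0.994. RMA normalises arrays to a common distribution, so a shift shared by most genes is not visible. Precision is limited by the number of arrays, 4 in each group.

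Groups were compared with limma 3.58.1 in R 4.3.3 (lmFit and eBayes, no covariate), and p-values were adjusted by Benjamini and Hochberg's method over all genes, with a threshold of 0.05. Differences are R6/2 minus wild-type. The labels give separate mice. Each marker score is the mean, over the markers, of the log2 value minus its wild-type mean. Alternatives covered quantile normalization, median centring, a filter on dim genes, other probe set rules, array weights, unmoderated tests, the cortical score as covariate and leaving out each mouse. The limma script was tested on simulated data, with 200 of 18193 genes changed and genes drawn independently. It recovered 57.6% of changes of 0.5 on the log2 scale and 95.4% of changes of 1. Of the calls 5.23% were false. A member that did not pass may thus still differ by a small amount. The genes given in every mouse were all that fell, plus those without a call that had the highest mean in a role group with no decrease, the 5 largest differences, or the 5 largest wild-type SDs. The members and lists were chosen with earlier results of these data known. Promoters came from the RefSeq table for GRCm38.p6; sequences were not shown for members it does not hold.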

Additional observations from a re-analysis of the deposited data

Results flagged for a closer look

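In 82 groups of 4 mice (41 genes in R6/2 and in wild-type striatum), 3 values stood apart from the rest of their group by Dixon's criterion. Chance flags about 1 in 20 groups. Cplx1 read 11.56 in R6/2 mouse 65, the lowest of its group, with the nearest mouse at 11.78. Synpr read 11.05 in R6/2 mouse 65, the highest of its group, with the nearest mouse at 10.58. Sv2c read 4.41 in R6/2 mouse 78, with the other 3 R6/2 mice at the identical value of 4.36.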

How the results depend on the processing

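No paired analysis was possible because the mouse numbers of R6/2 and wild-type mice are not shared. The 10 decreases among the members became 4 without moderation of the variances and 5 with the cortical score as covariate. Over all genes the share called lower also dropped in those fits, from 6.19% to 3.19% and 2.61%. The member count was 7 with median centring, 9 with the mean of all probe sets, and 11 with quantile normalization or array weights. It was 12 with an intensity trend and robust variances, or with the dimmest 40% of genes left out. Leaving out 1 mouse gave 4 to 10. The 0 increases became 1 (Syp) with array weights and ran from 0 to 1 without 1 mouse. The median difference was -0.12 with the mean of all probe sets and -0.097 with the covariate, and ran from -0.27 to -0.14 without 1 mouse. Among the 120 other presynaptic genes, the 9 decreases became 3 with the covariate (6 to 11 without 1 mouse). Their 13 increases became 23 with array weights, 4 without moderation and 6 with the covariate (7 to 14 without 1 mouse). Over all 18193 genes the number called higher moved the same way. It was 1654 in the main fit, 2297 with array weights, 819 without moderation and 734 with the covariate (921 to 1579 without 1 mouse). Across genes and settings, 41 of 694 values had the sign turned, in 15 members, none of them called. With the covariate, Stx1a was at 0.038, Vamp2 at 0.078, Nsf at 0.016, Unc13b at 0.21, Cplx1 at 0.090, Cplx3 at 0.30, Syt4 at -0.064, Syngr1 at 0.072, Sv2c at -0.0014 and Rab3b at 0.13. With the mean of all probe sets, Vamp1 was at 0.021, Vamp2 at 0.12, Unc13b at 0.025, Pclo at -0.24, Cplx1 at 0.038 and Syngr1 at 0.090. With array weights, Vamp1 was at 0.048, Unc13b at 0.081 and Sv2c at -0.052. Unc13b was at 0.012 with median centring, and Syt5 at -0.0011 with quantile normalization. Without 1 mouse, the difference ran from -0.073 to 0.11 in Syn3, -0.22 to 0.15 in Vamp1, -0.082 to 0.021 in Vamp2, -0.092 to 0.10 in Unc13b, -0.045 to 0.058 in Pclo and -0.080 to 0.024 in Cplx1. It ran from -0.00035 to 0.26 in Syt4, -0.058 to 0.071 in Syt5, -0.040 to 0.13 in Syngr3 and -0.13 to 0.052 in Rab3b. The causes were not tested.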
